A study of Mus musculus with 19 samples.

Results

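Splicing factors are the proteins that recognise splice sites in pre-messenger RNA and that set which exons are kept. Their transcripts were followed in embryonic stem cells (ESC) of the mouse, and in epiblast-like cells (EpiLC), with and without induced loss of Foxd3. The set was chosen by gene symbol, and the rule used no measured value. Earlier results of these data were known when it was chosen. The set holds symbols that begin with Hnrnp, Srsf, Sf3a, Sf3b, U2af or Snrp (without Snrpn), together with Esrp2, Rbfox2, Ptbp1, Ptbp2, Mbnl1, Mbnl2, Mbnl3, Celf1, Qk, Son, Tra2a and Tra2b. It took in 107 of the 25697 probes on the array, which stand for 60 genes. After a filter on detection (3 or more of the 19 arrays with a detection p-value below 0.01) 48 of the 60 genes and 79 of the 107 probes remained, out of 9422 genes and 12529 probes in all. Of the 48 genes, 45 were detected on all 19 arrays.

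The study asked how transcripts change when Foxd3, a forkhead transcription factor, is removed before and after ESC leave the naive state for the EpiLC state. Both cell types were given tamoxifen or ethanol, which made 4 groups of 3 samples. The knockout was induced by 36 h in 1 µM tamoxifen, per the labels, and the ethanol samples served as wild-type controls. All cells were kept in a serum medium based on Knockout DMEM, and ESC also received Lif with the inhibitors GSKi and MEKi. Total RNA was hybridized to an Illumina bead array, 7 of the 12 samples in both of 2 hybridization rounds and the others in a single round, which gave 19 arrays. Strain, cell line, the alleles and the number of clones are not given in the sources used here. The ethanol samples had no tamoxifen, so exposure to the drug and loss of Foxd3 cannot be told apart. The labels do not say whether a group's 3 samples came from separate cultures, and p-values measure only the spread between them, which may be technical.

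Splicing proceeds in steps that several classes of these proteins share. SR proteins, rich in arginine and serine, bind exons and mostly promote their use, while heterogeneous nuclear ribonucleoproteins (hnRNPs) often counter them. U2AF and the SF3A and SF3B complexes mark the polypyrimidine tract and the branch site, and the Sm proteins form the core of the small nuclear ribonucleoproteins (snRNPs). Regulators such as the MBNL, RBFOX, CELF and PTB proteins and ESRP2 act on fewer exons, and the MBNL proteins are known to hold back the exon choices typical of ESC in differentiated cells.

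The targeted gene could not be followed: 0 of 19 arrays detected its single probe, and the detection p-value was 0.239 or more on each. Raw intensity of that probe was between 124.6 and 184 on all arrays. Loss of Foxd3 therefore rests on the labels. The cell types matched theirs: of the naive ESC markers tested, 8 of 9 were lower in the ethanol samples of EpiLC, and 7 of 7 EpiLC markers were higher. Of 9 fibroblast or feeder markers, Col1a1, Col1a2, Col3a1, S100a4, Lum and Postn were detected on 0 arrays. The other 3, Thy1, Vim and Dcn, had a summed normalized intensity of 2012 to 2189 in ESC with ethanol and 1218 to 1542 in ESC with tamoxifen, where Vim fell (log2 change -0.62, adjusted p = 0.00727). In EpiLC the sum was 1295 to 1496 with ethanol and 1359 to 1694 with tamoxifen, and all 3 were called between the cell types in ethanol, Thy1 and Vim lower and Dcn higher in EpiLC. Their part in the results was not tested. Between 74 and 78 of the 107 splicing factor probes were detected per array. In ESC the arrays themselves differed with treatment, with median raw intensities in round 1 of 149.2 to 154.3 in ethanol and 165.6 to 175.9 in tamoxifen. In round 2 they were 192.8 to 205.7 and 205.8 to 219.7. The part of these array differences in the ESC results below was not tested.

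Few splicing factor transcripts changed with tamoxifen. In ESC, Mbnl2 rose and no other gene of the 48 was called, where a call is a Benjamini-Hochberg adjusted p under 0.05 in limma over all 9422 genes. Over all genes 9.09% were called in that comparison, 5.58% higher and 3.5% lower. In EpiLC, Mbnl2 and Esrp2 rose and Mbnl1 and Srsf10 fell, 4 of 48 genes against 6.91% of all genes (4.74% higher and 2.17% lower). With the sample number as a block the counts were 6 and 7 of 48, beside 21.6% and 19.9% of all genes. The genes added were of other classes than the regulators of exon choice. No splicing factor reached an absolute log2 change of 1 in either cell type, while 138 of all genes did in ESC and 92 in EpiLC. The median log2 change of the 48 genes was -0.03 in ESC and -0.08 in EpiLC, beside -0.01 and -0.02 over all genes. Their median absolute log2 change was 0.10 in both cell types, beside 0.16 and 0.15.

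**Figure D1:**
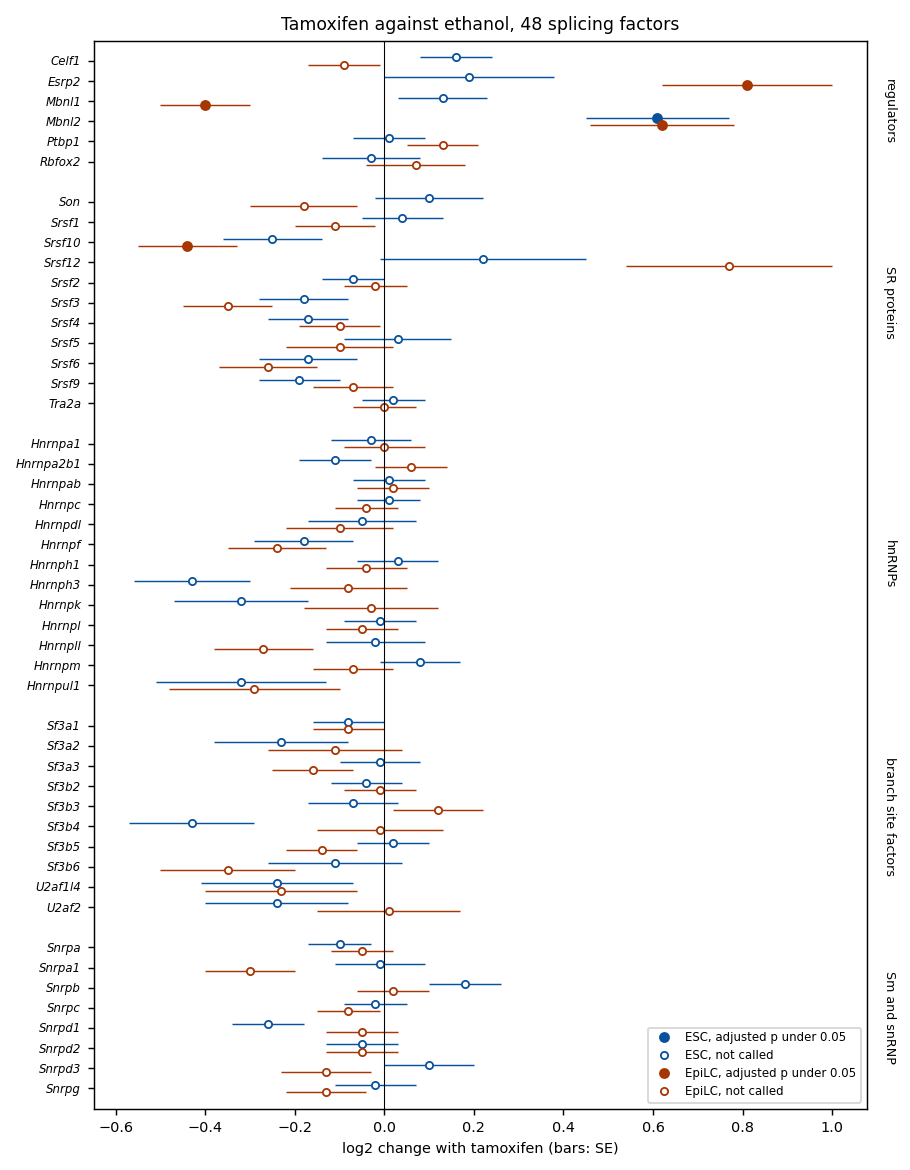
Log2 change with tamoxifen (horizontal axis) of the 48 splicing factors by class, in ESC (blue) and EpiLC (brown). Points are limma estimates from 3 samples per group, bars are their SE, and filled points have an adjusted p under 0.05: Mbnl2 in both cell types, and Esrp2, Mbnl1 and Srsf10 in EpiLC.

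The genes that changed with tamoxifen are shown with the 250 bases before their transcription start where the RefSeq promoter table (GRCm38.p6) holds a window, so that their promoters can be compared. The table held windows for 40 of the 48 genes. Capitals mark the GC box (GGGCGG), the CCAAT box (CCAAT), the TATA box (TATAAA) and the core letters bound by forkhead factors (TGTTTAC), on either strand, and matches that overlap run together. The windows lie at chr14:120275419-120275668 for Mbnl2, chr3:60472580-60472829 and chr3:60500929-60501178 for the 2 starts of Mbnl1, and chr4:135855821-135856070 for Srsf10, all on the plus strand.
Mbnl2: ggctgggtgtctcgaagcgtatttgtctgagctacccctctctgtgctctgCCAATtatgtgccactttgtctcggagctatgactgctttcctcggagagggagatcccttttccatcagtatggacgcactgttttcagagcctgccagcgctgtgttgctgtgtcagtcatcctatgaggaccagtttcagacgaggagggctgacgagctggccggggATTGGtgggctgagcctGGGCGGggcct
Mbnl1, first start: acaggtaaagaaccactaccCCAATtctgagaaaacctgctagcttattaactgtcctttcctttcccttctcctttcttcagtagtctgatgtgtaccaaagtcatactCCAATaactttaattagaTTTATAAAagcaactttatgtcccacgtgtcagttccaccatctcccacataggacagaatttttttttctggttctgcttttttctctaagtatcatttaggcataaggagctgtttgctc
Mbnl1, second start: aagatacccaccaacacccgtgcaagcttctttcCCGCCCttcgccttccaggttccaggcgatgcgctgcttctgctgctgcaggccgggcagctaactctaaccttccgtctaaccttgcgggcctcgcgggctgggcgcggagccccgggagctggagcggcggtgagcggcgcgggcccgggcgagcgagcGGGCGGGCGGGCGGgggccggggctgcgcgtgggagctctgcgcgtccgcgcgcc
Srsf10: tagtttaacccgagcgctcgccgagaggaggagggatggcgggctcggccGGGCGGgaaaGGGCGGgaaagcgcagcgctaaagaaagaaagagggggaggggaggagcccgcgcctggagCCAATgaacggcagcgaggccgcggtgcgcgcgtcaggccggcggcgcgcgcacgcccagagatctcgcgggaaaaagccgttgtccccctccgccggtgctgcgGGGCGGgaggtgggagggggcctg
Of 32851 such windows used, 3.17% held the forkhead letters, 32.7% the GC box, 33.8% the CCAAT box and 12.4% the TATA box. The forkhead letters were in none of the 4 windows printed. The windows differed in base composition, with a GC content of 57.2% for Mbnl2, 38% and 73.6% for the starts of Mbnl1 and 72% for Srsf10, where the median window had 52.4%. The first Mbnl1 start had a TATA box and no GC box, and its second start had 4 GC boxes and no TATA box.

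Mbnl2, a muscleblind-like protein that binds RNA and sets the inclusion of many exons, was the gene that rose in both cell types. In ESC its normalized log2 intensity was 9.71, 9.80 and 9.85 in ethanol and 10.18, 10.55 and 10.45 in tamoxifen. The 3 tamoxifen samples were all above the 3 ethanol samples. The log2 change was 0.61 (SE 0.16, n = 3 per group, limma adjusted p = 0.0337). In EpiLC the values were 10.06, 10.62 and 10.11 in ethanol and 10.84, 11.09 and 10.72 in tamoxifen, again without overlap, although sample 2 in ethanol lay close to the lowest tamoxifen sample. The log2 change was 0.62 (SE 0.16, adjusted p = 0.0381), and the difference between the effects in the 2 cell types was 0.01 (SE 0.22, adjusted p = 0.983). A second Mbnl2 probe rose by 0.50 in ESC (SE 0.12, adjusted p = 0.0288 over all probes). In EpiLC its change was 0.31 (SE 0.12, adjusted p = 0.167), which did not pass the test. Within ESC the change was 0.49 on round 1 arrays (adjusted p = 0.306) and 0.67 on round 2 arrays (adjusted p = 0.0109). In EpiLC it was 0.64 on round 1 arrays (adjusted p = 0.149), and the ethanol samples have no round 2 arrays. With no detection filter the adjusted p was 0.0509 in ESC and 0.0526 in EpiLC, and with equal medians (arrays scaled to a common median, without quantile normalization) the EpiLC change was 0.52 (adjusted p = 0.103). The ESC call was lost without any one of ethanol samples 1, 2 or 3 or tamoxifen samples 2 or 3, with changes of 0.53 to 0.64. The EpiLC call was lost without any one sample other than ethanol sample 2, with changes of 0.51 to 0.70.

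Mbnl1, the related muscleblind-like protein, fell in EpiLC. Its log2 intensity there was 10.19, 10.43 and 10.09 in ethanol and 9.80, 9.87 and 9.82 in tamoxifen. The groups did not overlap, and the log2 change was -0.40 (SE 0.10, adjusted p = 0.0323). In ESC the values were 9.31, 9.38 and 9.24 in ethanol and 9.52, 9.46 and 9.33 in tamoxifen, which overlapped, with a change of 0.13 (SE 0.10, adjusted p = 0.472). The difference between the effects, EpiLC minus ESC, was -0.53 (SE 0.14, adjusted p = 0.0727). It passed the test when the sample numbers were used as a block within each cell type (-0.53, SE 0.11, adjusted p = 0.022). The other Mbnl1 probe was detected on 0 arrays. The EpiLC fall was -0.40 on round 1 arrays (adjusted p = 0.0874). The call was lost without any one sample other than ethanol sample 3, with changes of -0.31 to -0.43.

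Esrp2, an epithelial splicing regulator, rose in EpiLC. Its log2 intensity was 5.94, 6.23 and 6.76 in ethanol and 7.26, 6.79 and 7.30 in tamoxifen. The probe was detected on all 19 arrays, but the ethanol values were close to the lowest detected signal of their arrays, 5.76 to 5.98 in log2. The groups did not overlap, but the highest ethanol sample and the lowest tamoxifen sample were close. The log2 change was 0.81 (SE 0.19, adjusted p = 0.0267), with the widest spread among the called genes. In ESC the values were 6.51, 6.48 and 6.48 in ethanol and 6.70, 6.58 and 6.78 in tamoxifen. That change was 0.19 (SE 0.19, adjusted p = 0.585), and the difference between cell types was 0.61 (SE 0.27, adjusted p = 0.273). The EpiLC change was 0.84 on round 1 arrays (adjusted p = 0.0533) and 0.35 in the authors' normalized table (adjusted p = 0.0132). The call was lost without ethanol samples 1 or 2 or tamoxifen samples 1 or 3, taken one at a time, with changes of 0.62 to 0.77.

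Srsf10, an SR protein that can repress splicing when it is dephosphorylated, was the SR gene that fell in EpiLC. Its log2 intensity was 10.72, 11.00 and 10.63 in ethanol and 10.26, 10.55 and 10.24 in tamoxifen. The groups did not overlap, and the log2 change was -0.44 (SE 0.11, adjusted p = 0.0394). In ESC the values were 10.51, 10.47 and 10.43 in ethanol and 10.23, 10.19 and 10.23 in tamoxifen. These too did not overlap, with a change of -0.25 (SE 0.11, adjusted p = 0.2), which passed the test with the sample number as a block (SE 0.06, adjusted p = 0.0237). The other Srsf10 probes had log2 changes of -0.18 and -0.08 in EpiLC (adjusted p = 0.402 and 0.787 over all probes), and the mean of the 3 probes had -0.23 (adjusted p = 0.118). With equal medians the change was -0.54 (adjusted p = 0.0506), and with no detection filter the adjusted p was 0.0518. The EpiLC fall was -0.46 on round 1 arrays (adjusted p = 0.0828). The call was lost without ethanol samples 1 or 2 or tamoxifen samples 1 or 3, taken one at a time, with changes of -0.33 to -0.47.

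**Figure D2:**
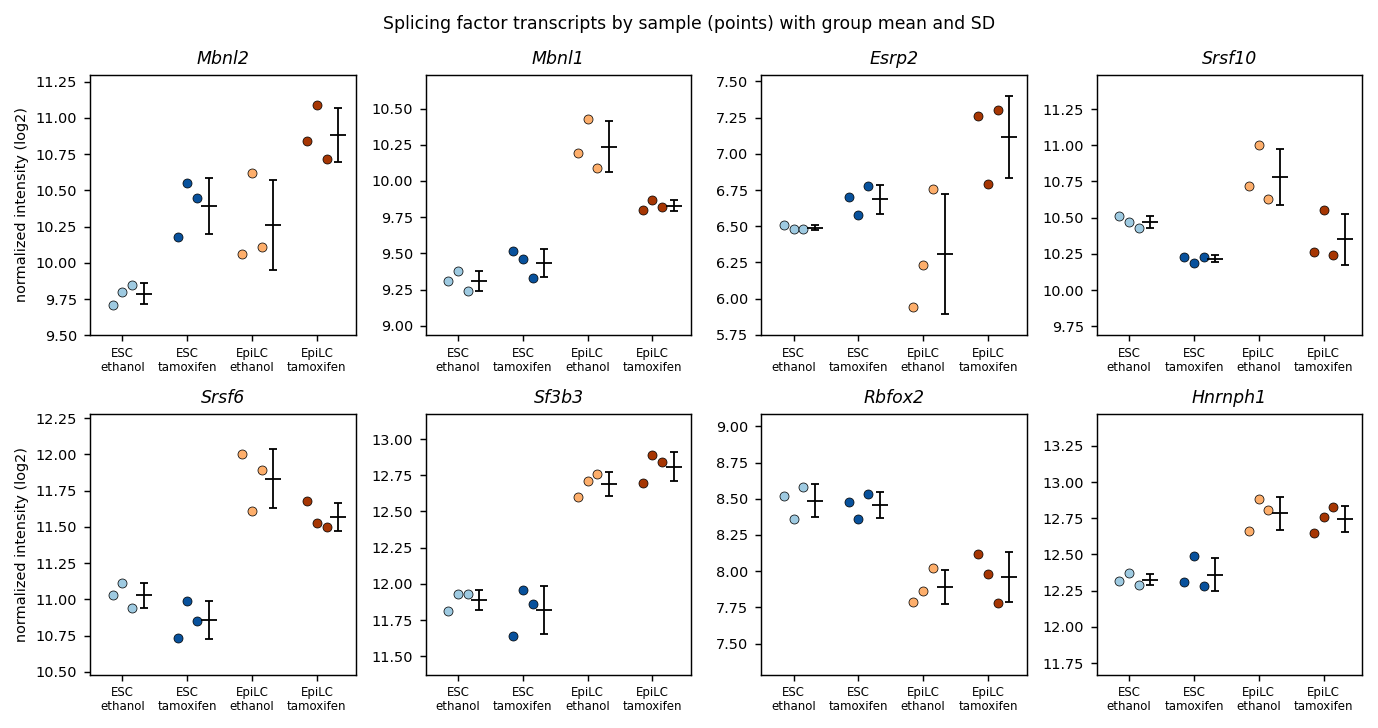
Normalized log2 intensity (vertical axis, the same height of scale in each panel) of 8 splicing factors in the 3 samples of each group, with points in the order of sample number and the bar giving the mean and SD beside them. Mbnl2 is higher with tamoxifen in both cell types, Mbnl1 is lower with tamoxifen in EpiLC, and Srsf6, Sf3b3 and Hnrnph1 are higher and Rbfox2 lower in EpiLC than in ESC.

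The sample numbers paired the ethanol and tamoxifen samples within a cell type, and the block they form changed the counts. With it, 6 of 48 genes were called in ESC, 1 higher and 5 lower, where 21.6% of all genes were called. Beside Mbnl2 these were Srsf10, the Sm protein gene Snrpd1 (-0.26, SE 0.06, adjusted p = 0.024), the branch site factor gene Sf3b4 (-0.43, SE 0.08, adjusted p = 0.0102), Hnrnph3 (-0.43, SE 0.10, adjusted p = 0.0197) and Hnrnpk (-0.32, SE 0.07, adjusted p = 0.0182). In EpiLC 7 of 48 were called, 2 higher and 5 lower, against 19.9% of all genes. Those added were the SR gene Srsf3 (-0.35, SE 0.10, adjusted p = 0.042), Sf3b6 (-0.35, SE 0.09, adjusted p = 0.038) and Hnrnpll (-0.27, SE 0.07, adjusted p = 0.0291). The difference between the effects gave 1 call with the block, Mbnl1, against 12.2% of all genes.

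Without the block the difference between the tamoxifen effects gave 0 calls among the 48 genes by limma, where 2.59% of all genes were called, and 3 had an unadjusted p under 0.05, against 16.9% of all genes. On the probe used for each gene, most splicing factors were measured closely enough to bound their change. Such a bound does not cover other probes of the gene: in ESC, second probes of Srsf2 and Ptbp1 were called lower. The SE of a tamoxifen effect was 0.07 to 0.23 over the 48 genes, with a median of 0.10. Of the 47 genes not called in ESC, 38 had a 95% interval that lay within 0.5 on the log2 scale on either side of 0, as did 36 of the 44 not called in EpiLC. Changes below 0 were more frequent than above it, in 31 of 48 genes in ESC and 37 of 48 in EpiLC, beside 4855 and 5026 of all 9422 genes. The groups did not overlap in the upward direction for 4 genes in ESC (16.7% of all genes) and in the downward direction for 11 (15.8%). In EpiLC these counts were 4 (12.1%) and 9 (12.6%).

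By class and without the block, none of the 13 hnRNP genes, 10 branch site genes or 8 Sm and snRNP genes tested was called with tamoxifen in either cell type, while with the block 2 hnRNP genes, 1 branch site gene and 1 Sm gene were called in ESC and 1 hnRNP gene and 1 branch site gene in EpiLC. Of the 11 SR and related genes 0 were called in ESC and 1 in EpiLC without the block, and of the 6 regulators 1 and 3 were. Over all genes 9.09% were called in ESC and 6.91% in EpiLC without the block, and 21.6% and 19.9% with it. Classes of this size are too small to be told from those shares by a count. The median log2 change of the hnRNP genes was -0.03 in ESC and -0.05 in EpiLC. The class ranged from -0.43 to 0.08 in ESC and from -0.29 to 0.06 in EpiLC, while Hnrnpc, Hnrnpab, Hnrnpl and Hnrnph1 stayed between -0.05 and 0.03 in both. In ESC, 7 of the 48 genes had an unadjusted p under 0.05, against 23.5% of all genes, and in EpiLC 11 had, against 22.5%. Markers of the cell state and of other lineages moved with the same treatment. In EpiLC, 3 of 9 naive ESC markers tested rose with tamoxifen (Klf2, Klf5 and Tbx3), and their list's summed intensity was 9508 to 11600 in ethanol and 12728 to 14086 in tamoxifen. Of 7 EpiLC markers 1 rose and 2 fell there, among them Dnmt3b (log2 change -0.41, adjusted p = 0.0389), with sums of 34358 to 36061 and 28552 to 32362. Mbnl1, which fell in EpiLC with tamoxifen, was itself higher in EpiLC than in ESC, and the part of this shift of markers in its fall and in that of Srsf10 was not tested. The primitive endoderm markers Gata6 and Dab2 rose in tamoxifen-treated ESC, 2 of 6 markers, while Gata4 was detected on 0 arrays. The summed normalized intensity of the 2 tested was 555 to 728 in ethanol and 1596 to 2020 in tamoxifen. For 3 of 6 trophoblast markers tested that sum was 3347 to 4084 and 6933 to 7873 in ESC, and 1926 to 2949 and 5899 to 7621 in EpiLC. Elf5 and Hand1 of that list were detected on 0 arrays. The part of such cells in the splicing factor values was not tested, and in bulk RNA fewer cells of a type and less RNA per cell cannot be told apart.

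The step from ESC to EpiLC shifted more splicing factors, mostly upward, with a smaller median absolute difference than that of all genes. In ethanol 20 of 48 genes were called, 17 higher and 3 lower in EpiLC, where 56.3% of all genes were called, 29.8% higher and 26.4% lower. In tamoxifen 18 of 48 were called, 16 higher and 2 lower (17 of 47 without Srsf12, which passed the detection filter through 1 group alone), where 56.5% of all genes were called, 29.4% higher and 27.1% lower. With equal medians the split in tamoxifen was 5 higher and 4 lower, and the median of all genes lay at -0.10. The split in ethanol was then 15 higher and 3 lower. The median log2 difference of the 48 genes was 0.14 in ethanol and 0.15 in tamoxifen, beside 0.03 and 0.01 over all genes. Their median absolute log2 difference was 0.19 in both, beside 0.40. No splicing factor reached an absolute difference of 1, which 1930 of all genes did in ethanol and 1856 in tamoxifen. The groups did not overlap for 22 genes higher in EpiLC in ethanol (33% of all genes) and 3 lower (29.2%), and for 23 higher (33.1%) and 3 lower (30.6%) in tamoxifen. The comparisons in ethanol and in tamoxifen use different samples, and 14 genes were called in both in the same direction, 70% of the former list and 77.8% of the latter.

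**Figure D3:**
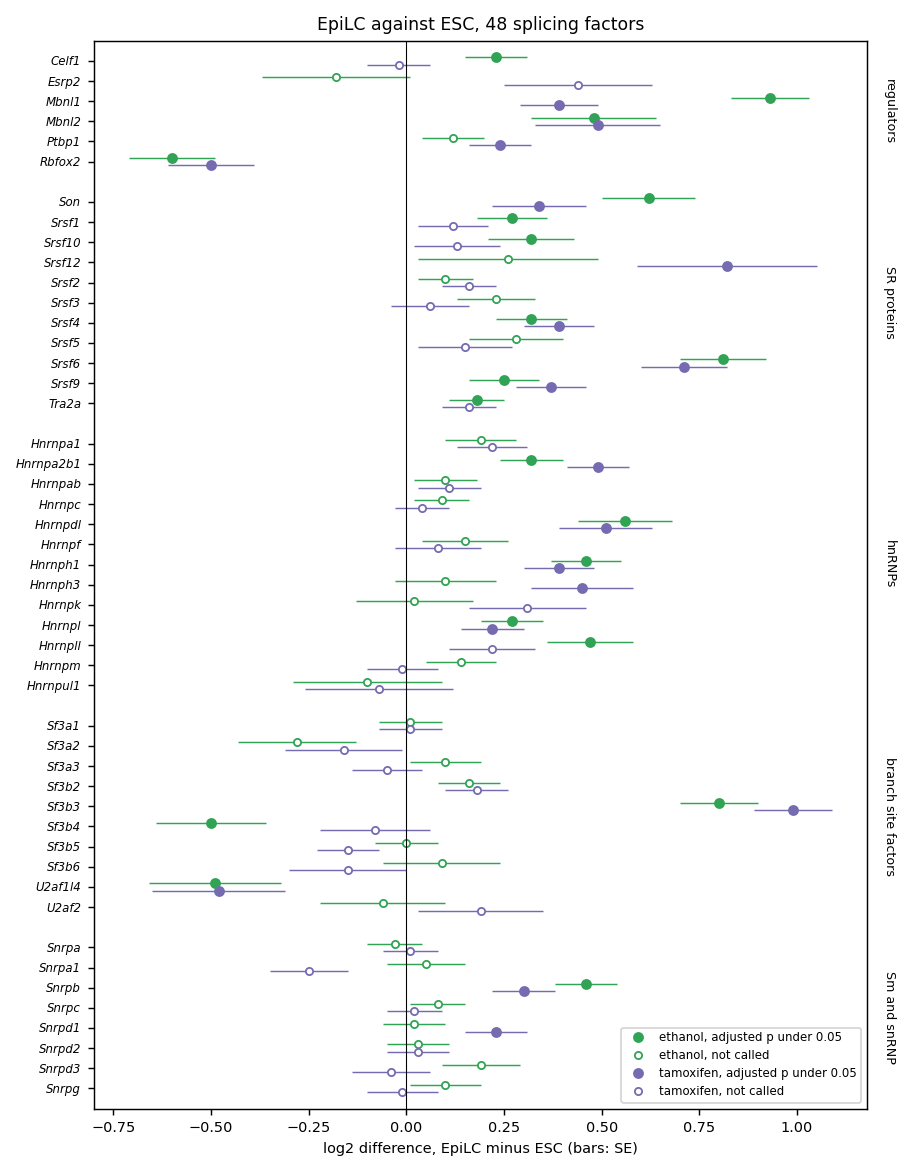
Log2 difference EpiLC minus ESC (horizontal axis) of the 48 splicing factors by class, in ethanol (green) and in tamoxifen (purple). Points are limma estimates from 3 samples per group, bars are their SE, and filled points have an adjusted p under 0.05. All 11 SR and related genes lie above 0 in both treatments (6 of 11 in tamoxifen with equal medians), Srsf12 was detected in EpiLC with tamoxifen alone, and Rbfox2 and U2af1l4 lie below 0 in both.

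Among the regulators, Mbnl1 was the gene with the largest difference in ethanol. From the values given above, all EpiLC samples were higher than all ESC samples in both treatments. The difference was 0.93 in ethanol (SE 0.10, adjusted p = 8.4e-06) and 0.39 in tamoxifen (SE 0.10, adjusted p = 0.00478). With equal medians the latter was 0.24 (adjusted p = 0.164). Mbnl2 differed by 0.48 in ethanol (SE 0.16, adjusted p = 0.0211) and 0.49 in tamoxifen (SE 0.16, adjusted p = 0.0188), and with equal medians by 0.35 in tamoxifen (adjusted p = 0.125). On round 1 arrays alone the Mbnl2 differences were 0.41 (adjusted p = 0.191) and 0.56 (adjusted p = 0.0515), and those of Mbnl1 were 0.98 and 0.36 (adjusted p = 0.000107 and 0.0233).

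Rbfox2, which promotes or represses exons according to the side on which it binds, was lower in EpiLC. Its log2 intensity was 8.52, 8.36 and 8.58 in ESC with ethanol and 7.79, 7.86 and 8.02 in EpiLC with ethanol. With tamoxifen it was 8.48, 8.36 and 8.53 in ESC and 8.12, 7.98 and 7.78 in EpiLC. No EpiLC sample reached the lowest ESC sample. The difference was -0.60 in ethanol (SE 0.11, adjusted p = 0.00054) and -0.50 in tamoxifen (SE 0.11, adjusted p = 0.00198). The second Rbfox2 probe gave -0.44 and -0.52, both called. In tamoxifen the difference was -0.38 on round 1 arrays (adjusted p = 0.0504) and -0.72 on round 2 arrays (adjusted p = 0.0161).

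Celf1 and Ptbp1 were each called in a single treatment. Celf1, which binds GU-rich RNA and often opposes the MBNL proteins, had values of 10.96, 10.81 and 10.89 in ESC and 11.02, 11.21 and 11.11 in EpiLC with ethanol. These groups did not overlap, with a difference of 0.23 (SE 0.08, adjusted p = 0.0245). With tamoxifen its values were 11.08, 10.99 and 11.05 in ESC and 11.03, 11.04 and 11.00 in EpiLC, which overlapped, with a difference of -0.02 (SE 0.08, adjusted p = 0.87). Ptbp1, a polypyrimidine tract-binding repressor of exons, had values of 12.99, 13.06 and 13.10 in ESC and 13.23, 13.03 and 13.25 in EpiLC with ethanol. Those groups overlapped, with a difference of 0.12 (SE 0.08, adjusted p = 0.249). With tamoxifen its values were 12.96, 13.11 and 13.12 in ESC and 13.31, 13.31 and 13.29 in EpiLC. Here all EpiLC samples were higher, with a difference of 0.24 (SE 0.08, adjusted p = 0.0294), which was 0.06 with equal medians (adjusted p = 0.582). Esrp2 differed by -0.18 in ethanol (SE 0.19, adjusted p = 0.446) and 0.44 in tamoxifen (SE 0.19, adjusted p = 0.0672). The probes of Ptbp2, Mbnl3 and Qk were detected on 0 arrays.

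All 11 SR and related genes had differences above 0 in both treatments, and 7 were called in ethanol and 5 in tamoxifen (4 of 10 without Srsf12), beside 56.3% and 56.5% of all genes. With equal medians all 11 lay above 0 in ethanol with 5 called, but 6 of 11 in tamoxifen with 2 called. Their median difference was 0.27 and 0.16, beside 0.03 and 0.01 over all genes. Srsf6, an SR protein that binds exonic enhancers, had the largest difference of the class in ethanol. Its log2 intensity in ethanol was 11.03, 11.11 and 10.94 in ESC and 12, 11.61 and 11.89 in EpiLC. With tamoxifen it was 10.73, 10.99 and 10.85 in ESC and 11.68, 11.53 and 11.50 in EpiLC. The groups were far apart in both, with a difference of 0.81 in ethanol (SE 0.11, adjusted p = 8.71e-05) and 0.71 in tamoxifen (SE 0.11, adjusted p = 0.000227).

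Son, a large protein of the nuclear speckles needed for splicing of weak introns, had values of 7.60, 7.49 and 7.60 in ESC and 7.95, 8.37 and 8.23 in EpiLC with ethanol. In tamoxifen they were 7.67, 7.52 and 7.80 and 7.90, 8.12 and 7.99. EpiLC samples were higher throughout, by 0.62 in ethanol (SE 0.12, adjusted p = 0.000798) and 0.34 in tamoxifen (SE 0.12, adjusted p = 0.027). The latter was 0.18 on round 1 arrays (adjusted p = 0.272), 0.59 on round 2 arrays (adjusted p = 0.0152) and 0.23 with equal medians (adjusted p = 0.185). It also lost its call without ESC samples 1 or 2 or EpiLC samples 2 or 3, taken one at a time, with differences of 0.27 to 0.35. Tra2a, an SR-related activator of exons, had values of 13.05, 13.06 and 13.02 in ESC and 13.20, 13.19 and 13.29 in EpiLC with ethanol, which did not overlap. With tamoxifen the values were 13.03, 13.07 and 13.10 and 13.22, 13.20 and 13.26. The difference was 0.18 (SE 0.07, adjusted p = 0.0427) and 0.16 (SE 0.07, adjusted p = 0.0747). Srsf4 and Srsf9 were called in both treatments, with differences of 0.32 and 0.25 in ethanol and 0.39 and 0.37 in tamoxifen. With equal medians the tamoxifen values were 0.23 and 0.21 (adjusted p = 0.0677 and 0.0707), and on round 1 arrays those of Srsf9 were 0.22 in ethanol (adjusted p = 0.147) and 0.26 in tamoxifen (adjusted p = 0.0587).

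Srsf12, an SR protein, lay at the limit of detection. Its probe was detected on 3 arrays in all, all of EpiLC with tamoxifen, so it passed the filter only through the group in which it is high, and its call in the fit is no evidence of a difference. The values were 5.27, 5.10 and 5.09 in ESC and 6.27, 5.79 and 5.85 in EpiLC with tamoxifen, and 4.72, 5.16 and 4.94 and 4.61, 5.61 and 5.37 with ethanol. Since it was not well above background in ESC, the ratio of EpiLC to ESC in tamoxifen was computed only as a bound, 1.11-fold. The bound has no error, and its EpiLC mean takes in arrays where the probe was not detected. It too is no evidence of a difference. On round 2 arrays alone the log2 difference was 0.32 (adjusted p = 0.354). The bound is the mean of EpiLC over that of ESC after each ESC array was raised to its lowest detected signal.

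Of the 13 hnRNP genes, 5 were called higher in EpiLC in each treatment and none lower, beside 29.8% and 29.4% of all genes called higher. With equal medians 5 were called higher in ethanol and 2 in tamoxifen. Hnrnpdl, an hnRNP D-like protein, had values of 11.08, 11.19 and 11.32 in ESC and 11.59, 11.72 and 11.96 in EpiLC with ethanol. With tamoxifen they were 10.98, 11.27 and 11.18 and 11.63, 11.56 and 11.78. All EpiLC samples were higher, by 0.56 in ethanol (SE 0.12, adjusted p = 0.00187) and 0.51 in tamoxifen (SE 0.12, adjusted p = 0.00326). Its second probe differed by 0.33 and -0.07, and neither passed the test. Hnrnpa2b1, an hnRNP of the A/B group, had values of 13.27, 13.23 and 13.19 in ESC and 13.44, 13.60 and 13.59 in EpiLC with ethanol. With tamoxifen they were 13.10, 13.17 and 13.08 and 13.53, 13.58 and 13.70. No samples overlapped, and the difference was 0.32 (SE 0.08, adjusted p = 0.00568) and 0.49 (SE 0.08, adjusted p = 0.000299). With the mean of its kept probes the tamoxifen difference was 0.26 (adjusted p = 0.079).

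Hnrnph1, which binds runs of G in RNA, was the gene with the most kept probes in the set. Its used probe differed by 0.46 in ethanol (SE 0.09, adjusted p = 0.00119) and 0.39 in tamoxifen (SE 0.09, adjusted p = 0.00356), and with equal medians by 0.20 in tamoxifen (adjusted p = 0.132). All 5 of its probes were higher in EpiLC, by 0.33 to 0.54 in ethanol and 0.24 to 0.72 in tamoxifen. Hnrnpl, called in both treatments, differed by 0.27 and 0.22, and with equal medians by 0.04 in tamoxifen (adjusted p = 0.745). Hnrnpll was called in ethanol (0.47, SE 0.11, adjusted p = 0.0028) and Hnrnph3 in tamoxifen (0.45, SE 0.13, adjusted p = 0.0101, and 0.34 with an adjusted p of 0.0749 with equal medians). For Hnrnpll the difference in tamoxifen was 0.22 (adjusted p = 0.0991), and for Hnrnph3 the difference in ethanol was 0.10 (adjusted p = 0.525). Whether the step differed between treatments is the same contrast as the difference between tamoxifen effects, in which neither gene was called.

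Branch site factors split in direction. Sf3b3, a subunit of the SF3B complex, had log2 intensities of 11.81, 11.93 and 11.93 in ESC and 12.60, 12.71 and 12.76 in EpiLC with ethanol. With tamoxifen it had 11.64, 11.96 and 11.86 and 12.70, 12.89 and 12.84. The groups were well separated, by 0.80 in ethanol (SE 0.10, adjusted p = 3.13e-05) and 0.99 in tamoxifen (SE 0.10, adjusted p = 5.64e-06). Other subunits of SF3A and SF3B did not share this difference in size: Sf3a1, Sf3a2, Sf3a3, Sf3b2, Sf3b5 and Sf3b6 lay between -0.28 and 0.18, and none of them was called. With equal medians Sf3b5 was called lower in tamoxifen (-0.35, adjusted p = 0.00981).

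Sf3b4, an SF3B subunit that contacts RNA near the branch site, had values of 8.43, 8.65 and 8.84 in ESC and 8.14, 8.04 and 8.24 in EpiLC with ethanol. With tamoxifen they were 8.13, 8.14 and 8.36 and 8.01, 7.97 and 8.40. For this probe the groups were apart in ethanol only, with differences of -0.50 (SE 0.14, adjusted p = 0.00862) and -0.08 (SE 0.14, adjusted p = 0.631). The difference between these was not called (0.42, SE 0.19, adjusted p = 0.311). A second kept probe of Sf3b4 was called in tamoxifen, so the pattern of ethanol alone belongs to the used probe. In round 1 its raw intensity was 165 to 190 in EpiLC and 193 to 239 in ESC with tamoxifen. U2af1l4, a relative of the small U2AF subunit, had values of 8.03, 7.82 and 8.04 in ESC and 7.63, 7.09 and 7.71 in EpiLC with ethanol. With tamoxifen they were 7.88, 7.51 and 7.79 and 7.45, 6.99 and 7.30. EpiLC samples were lower, by -0.49 in ethanol (SE 0.17, adjusted p = 0.032) and -0.48 in tamoxifen (SE 0.17, adjusted p = 0.0344). On round 1 arrays the ethanol difference was -0.52 (adjusted p = 0.0591), and on round 2 arrays the tamoxifen difference was -0.47 (adjusted p = 0.0524).

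Of the 8 Sm and snRNP genes, 1 was called in ethanol and 2 in tamoxifen, all higher in EpiLC. This direction turned with equal medians in tamoxifen, where none was called higher and Snrpa1 was called lower (-0.39, adjusted p = 0.0254, beside -0.25 and 0.0619 with equal quantiles). Their median log2 difference was 0.07 in ethanol and 0.02 in tamoxifen. Of the 8 tested, Snrpb, a core Sm protein, was called in both treatments, by 0.46 (SE 0.08, adjusted p = 0.000265) and 0.30 (SE 0.08, adjusted p = 0.00521). Both of its probes were called in both treatments, the second with 0.35 and 0.61. With equal medians the tamoxifen difference of Snrpb was 0.11 (adjusted p = 0.304). Snrpd1 was called in tamoxifen (0.23, SE 0.08, adjusted p = 0.0239) and was 0.06 with equal medians (adjusted p = 0.597). Snrpa, Snrpc, Snrpd2 and Snrpg lay between -0.03 and 0.10 in both treatments.

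Several of these calls did not hold when 1 sample was left out. In ethanol, Celf1 was not called without ESC samples 2 or 3 or EpiLC samples 2 or 3, taken one at a time (0.19 to 0.23), and Mbnl2 was not called without ESC sample 1 or EpiLC sample 2 (0.44 and 0.30). U2af1l4 was not called without ESC samples 1 or 3 or EpiLC sample 2 (-0.46, -0.45 and -0.30), and Tra2a was not called without any one of the 6 samples (0.15 to 0.20). Srsf9 was not called without ESC samples 1 or 2 or EpiLC samples 1 or 3 (0.20 to 0.26). Srsf1 was not called without ESC samples 2 or 3 or EpiLC samples 1 or 2 (0.23 to 0.27), and Srsf10 without ESC samples 2 or 3 or EpiLC sample 2 (0.21 to 0.32). In tamoxifen, Ptbp1 was not called without ESC sample 1 or any one EpiLC sample (0.19 to 0.25), and Mbnl2 without ESC sample 1 or EpiLC sample 2 (0.39 in each). U2af1l4 was not called without ESC samples 1 or 3 or EpiLC samples 2 or 3 (-0.35 to -0.51), Hnrnpl without ESC sample 2 or EpiLC samples 2 or 3 (0.18 to 0.21), and Snrpd1 without ESC sample 2 or EpiLC samples 1 or 3 (0.19 to 0.23).

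Probes of the same gene did not always move alike, and probes of a gene can lie in different transcripts. More than 1 probe was kept for 22 genes, and for 0 of them did the comparisons call probes both higher and lower. With tamoxifen in ESC, the log2 change of a second probe of Srsf2, an SR protein, was -0.55, with an SE of 0.10 (adjusted p = 0.00496 over all probes), while the used probe gave -0.07 and the third 0.14. A second probe of Ptbp1 fell by 0.62 (SE 0.16, adjusted p = 0.0378), while the used probe gave a log2 change of 0.01. Counting probes, 4 of 79 were called with tamoxifen in ESC and 4 in EpiLC, where 8.21% and 5.9% of all probes were called. For EpiLC against ESC 31 of 79 were called in ethanol and 29 in tamoxifen, against 54.6% and 54.3%.

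**Figure D4:**
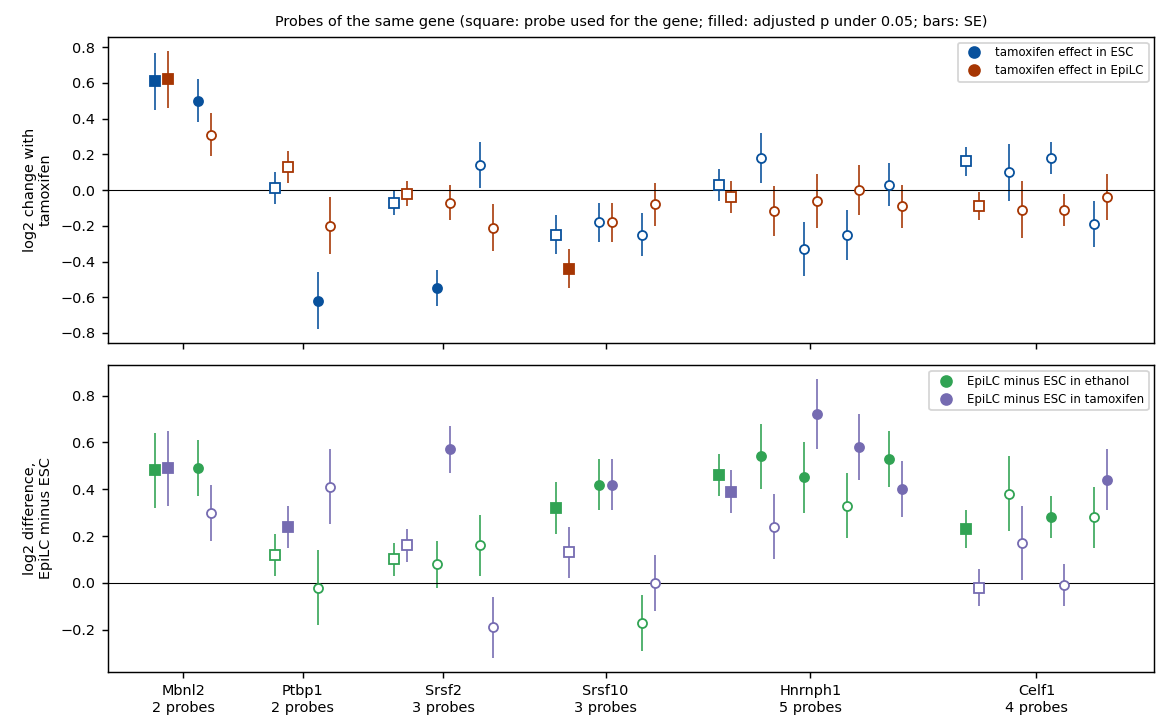
Log2 change with tamoxifen (upper panel) and log2 difference EpiLC minus ESC (lower panel) for every kept probe of 6 splicing factors. Squares are the probes used for the gene, circles the others, bars the SE, and filled symbols have an adjusted p under 0.05 over all probes. The 5 Hnrnph1 probes all lie above 0 in the lower panel, while the Srsf2 and Ptbp1 probes differ in ESC with tamoxifen.

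As a share of the summed raw intensity of all probes, the 107 splicing factor probes together made up 1.67 to 1.74% on ESC arrays with ethanol and 1.61 to 1.70% on ESC arrays with tamoxifen. On EpiLC arrays they made up 1.91 to 1.94% with ethanol and 1.79 to 1.82% with tamoxifen. The EpiLC arrays were all above the ESC arrays, and within EpiLC the arrays with ethanol were all above those with tamoxifen. This share is a description of the arrays, dominated by the brightest probes, and holds no test.

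**Figure D5:**
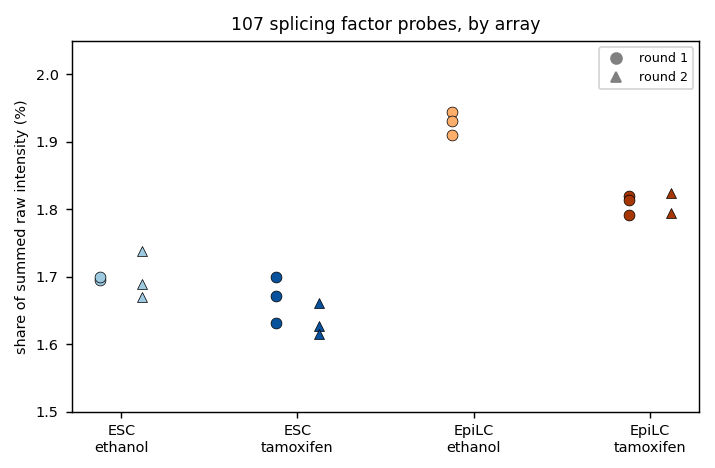
Share of the summed raw intensity of an array (vertical axis, in percent, not starting at 0) taken by the 107 splicing factor probes, for each of the 19 arrays by group. Circles are round 1 and triangles round 2; the EpiLC arrays lie between 1.79 and 1.94% and the ESC arrays between 1.61 and 1.74%.

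Other genes of the splicing pathway, grouped by complex or role, were read in the same fit. Of 7 tested SR protein kinases, which phosphorylate SR proteins, 3 were higher in EpiLC in ethanol, 4 in tamoxifen and none lower, beside 29.8% and 29.4% of all genes called higher. Among them Clk4 differed by 0.74 (SE 0.09, adjusted p = 2.44e-05) and Srpk2 by 0.45 in ethanol, and Srpk2 fell with tamoxifen in ESC (log2 change -0.42, SE 0.09, adjusted p = 0.0183). Of 21 genes of the tri-snRNP and the Prp19 complex, 2 were higher and 3 lower in EpiLC in ethanol, where 56.3% of all genes were called. In tamoxifen 2 were higher and 7 lower, beside 29.4% and 27.1% of all genes. The largest difference among them in ethanol was that of Cdc5l, a Prp19 complex subunit, at -1.15 (SE 0.08, adjusted p = 2.37e-07). With tamoxifen, Prpf38b was the gene of that list that changed, by -0.59 in EpiLC (SE 0.14, adjusted p = 0.0256). Over all genes 9.09% were called with tamoxifen in ESC and 6.91% in EpiLC.

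Of 10 tested LSm genes, 3 were higher and 1 lower in EpiLC in ethanol, and of 8 SMN complex genes, whose products assemble snRNPs, 3 were higher and 1 lower. Lsm6 differed by 0.92 (SE 0.07) and Gemin7 by -0.74 (SE 0.12). Of 9 helicases and second-step factors 3 were higher and 1 lower, and of 5 exon junction complex genes 2 were higher. For comparison, 29.8% of all genes were called higher and 26.4% lower. With tamoxifen, 1 of the LSm genes changed in EpiLC (Lsm6, -0.27) and 1 of the helicases in ESC (Dhx16, 0.44), and no SMN or exon junction complex gene changed in either cell type. Beside these, 9.09% of all genes were called with tamoxifen in ESC and 6.91% in EpiLC.

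Regulators of exon choice outside the set were also read. Of 15 tested, 3 were called with tamoxifen in ESC and 4 in EpiLC, and 10 for EpiLC against ESC in ethanol, beside 9.09%, 6.91% and 56.3% of all genes. Of these, Esrp1, Rbfox3, Ptbp3, Elavl3 and Celf4 passed the detection filter mainly or only through 1 cell type, so the filter itself bears on their calls, which the counts include. Esrp1, the paralog of Esrp2, was detected on 1 of 5 arrays of ESC with ethanol and on all 3 of EpiLC with ethanol, with a mean log2 intensity of 11.64 in the latter (SD 0.03). Rbm47, an RNA-binding protein of epithelial cells, rose with tamoxifen by 0.78 in ESC (SE 0.12, adjusted p = 0.00257) and 0.79 in EpiLC (SE 0.12, adjusted p = 0.0037). Elavl2 fell in both, by 0.30 (adjusted p = 0.0484) and 0.33 (adjusted p = 0.0433) on the log2 scale. Elavl3 and Celf4, known mainly from neurons, were detected on 3 of 3 EpiLC arrays with ethanol, on 2 of 5 with tamoxifen and on 0 ESC arrays. Their mean log2 intensities in EpiLC were 6.52 (SD 0.25) and 6.73 (SD 0.29) with ethanol and 5.76 (SD 0.16) and 5.57 (SD 0.45) with tamoxifen, and a tamoxifen effect in ESC could not be measured.

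The 12 genes that were not tested were Tra2b, Hnrnpd, Hnrnpa3, Hnrnph2, Hnrnpu, Hnrnpr, Snrpe, Snrpb2, Sf3b1, Mbnl3, Ptbp2 and Qk. Of all 107 probes, 26 were detected on 0 arrays. For these genes the array gives no level, and nothing follows about their expression.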

How the data were processed

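The authors deposited unnormalized mean bead intensity values, linear in scale, and a detection p-value per probe, per the file headers. They also deposited a table of normalized intensity values, for which the submitters' processing notes name limma without a version. It served as an alternative, in log2 after values under 1 were set to 1. The raw values of the 19 arrays were background-corrected with normexp from the detection p-values (offset 16), quantile normalized and put on the log2 scale by the function neqc (limma 3.58.1, R 4.3.3). Every log2 value printed was computed here from what the authors deposited. A fit of sample plus hybridization round gave 1 value per sample. Probes were kept where 3 or more arrays had a detection p-value below 0.01, named through the platform's gene identifiers, and the probe with the highest mean stood for a gene.

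All 12 samples entered 1 limma fit (lmFit, eBayes) of 9422 genes with 5 contrasts, adjusted by Benjamini-Hochberg over all genes and tested on simulated data. The number of samples limits the precision: an exact permutation test of 3 against 3 cannot give a p under 0.1. Between ethanol and tamoxifen samples with the same number, deviations from the group means correlated at 0.371 to 0.471 in ESC and 0.497 to 0.567 in EpiLC, so the numbers pair samples there. Between cell types the correlations were weaker, 0.0599 to 0.253 for the same number and -0.217 to 0.0817 for other numbers. No pairing was assumed there. The set and the lists of other genes were chosen with earlier results of these data known. Values in every sample are given for genes called with tamoxifen, for the 8 largest called differences between cell types in each treatment and for tested genes listed by name. Alternatives varied the scaling, table, filter, probe choice, rounds, block and threshold and left out each sample in turn.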

Additional observations from a re-analysis of the deposited data

How the results depend on the processing

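Counts of called splicing factors under other settings follow, with the main count first and the share of all genes called in parentheses. With tamoxifen in ESC (1 called, 9.09%), there were 4 in the authors' table (12.3%), 0 with no detection filter (4.02%) and 3 with detection required on every array of a group (11.7%). The mean of a gene's probes gave 2 (9.61%), and every probe tested by itself gave 4 of 79 (8.21% of all probes). There were 0 on round 1 arrays (4.26%), 2 on round 2 arrays (8.28%) and 4 with all 19 arrays and the sample as a random block (12.9%). The replicate block gave 6 (21.6%) and an adjusted p under 0.01 gave 0 (3.84%). With tamoxifen in EpiLC (4 called, 6.91%), there were 6 in the authors' table (11.4%), 2 with equal medians (5.92%), 2 with no filter (3.3%) and 2 with the mean of probes (6.62%). There were 0 on round 1 arrays (3.58%), 7 with the replicate block (19.9%) and 0 at the stricter threshold (2.5%). Leaving out 1 sample in turn gave 0 to 1 in ESC (5.55 to 6.19%) and 0 to 3 in EpiLC (3.73 to 5.82%). For EpiLC against ESC in ethanol (20 called, 56.3%), there were 24 in the authors' table (59.6%), 14 on round 1 arrays (47.9%), 31 of 79 probes (54.6%) and 11 at the stricter threshold (44.6%). In tamoxifen (18 called, 56.5%), there were 25 in the authors' table (60.2%), 12 on round 1 arrays (52%) and 9 with equal medians (54.2%). There were 29 of 79 probes (54.3%) and 11 at the stricter threshold (44.2%). Leaving out 1 sample gave 14 to 19 in ethanol (50.3 to 53.2%) and 13 to 19 in tamoxifen (49.9 to 54.5%). The block across cell types, where the main fit assumed no pairing, gave 23 in ethanol (61.9%) and 23 in tamoxifen (62.2%). For the difference between tamoxifen effects (0 called, 2.59%), Mbnl1 alone was called with equal medians (3.58%), in the authors' table (4.2%), with all 19 arrays (3.51%) and with the replicate block (12.2%). In every fit without 1 sample there were 0 (1.15 to 2.1%). Equal medians moved the median of all genes in that contrast to -0.18. The cause of these changes was not tested.

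Of single genes, Hnrnpm changed sign: its EpiLC minus ESC difference in tamoxifen was 0.26 on round 1 arrays (adjusted p = 0.0416) and -0.01 with both rounds. Of its 3 kept probes, the brightest was picked anew in each setting. These values can thus come from different probes and do not show a reversal between rounds. None of the 5 tamoxifen calls held under all settings, while 11 of the 20 calls in ethanol and 2 of the 18 in tamoxifen between cell types did. The limits are 3 samples per group, the single round of the EpiLC ethanol samples, and 12 genes without a detected probe on 3 arrays. The replicate block ended 0 of the tamoxifen calls.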
